A study of Mus musculus with 14 samples.

Results

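Antibody variable (V) segments are the gene pieces that encode most of the antigen-binding part of an antibody chain. They were counted here in RNA libraries of sorted colon macrophages, with sorted colon epithelial cells as a reference. The members were every row of the deposited counts whose gene biotype was IG_V_gene. This rule used no measured value and took 218 of 55487 rows: 113 of the heavy chain locus on chromosome 12, 102 of the kappa locus on chromosome 6 and 3 of the lambda locus on chromosome 16 (mouse build GRCm38). At least 1 count was found for 200 of the 218 in some library, for 199 in a macrophage library and for 158 in an epithelial library.

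An antibody is made of heavy chains paired with kappa or lambda light chains. In each developing B cell, 1 heavy V segment is joined to a D and a J segment, and 1 light V segment to a J segment, after which the joined exon is spliced to a constant gene that sets the chain class. A B cell and its descendants therefore carry the same pair of V segments, and plasma cells transcribe them at very high levels. The lamina propria of the colon is rich in plasma cells that secrete IgA, whose heavy chain is encoded by Igha. Macrophages do not rearrange antibody genes. They bind antibodies through Fc receptors.

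The series compared mice whose Tsc2 gene, a brake on the growth kinase mTORC1, was removed in Lyz2-expressing cells with mice that kept it. Both genotypes carried the Tsc2fl/fl alleles. The wt group was Tsc2fl/fl Lyz2+/+, and the cre group was Tsc2fl/fl Lyz2cre/+, in which the Cre recombinase is made from the Lyz2 locus, active in macrophages and other myeloid cells. Macrophages (LP, for lamina propria) were sorted as CD45+, CD11b+, CD64+ and Ly6G- cells, and epithelial cells (EC) as EpCAM+ and CD44+ cells without CD45. There were 3 wt macrophage libraries (mouse numbers 2, 4 and 6), 3 cre macrophage libraries (8, 9 and 10), 4 wt epithelial libraries (2, 4, 6 and 7) and 4 cre epithelial libraries (5, 8, 9 and 10). All 3 cre macrophage libraries came from males. Of the wt macrophage libraries, 2 and 4 came from females and 6 from a male. Of the epithelial libraries, wt 2, wt 4 and cre 5 came from females and the others from males. The labels read here state no ages.

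Libraries held 7269103 to 9364551 counts. Tsc2 was at 24.0 to 39.5 CPM (counts scaled to the same total in every library) in wt macrophage libraries and 22.7 to 34.2 CPM in cre macrophage libraries, which overlapped. The labels do not say which exons are removed, and a count over the whole gene includes those that are not, so it did not check the genotype labels. The 10 macrophage markers summed to 13743 to 18411 CPM in macrophage libraries and 47.6 to 136 CPM in epithelial libraries. The 8 epithelial markers summed to 43.5 to 217 and 7919 to 12386 CPM.

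Reads were 50 bases long, so whether a read can be placed on 1 V segment depends on how much sequence the segment shares with its relatives. Of all 50-base windows in a member's annotated transcript (GENCODE M21, all 218 matched), a median of 76.8% occurred in no other gene's transcript. For 44 members every window was found in that gene alone, and for 35 members fewer than 50% were. The treatment of reads that match several genes is not given in the labels, so counts of close relatives may be split or lost. The sequences below are the germline reference, not reads. They are the last 298 to 300 coding bases of the V exon, 5′ to 3′ on the coding strand, with bases covered by at least 1 such gene-specific window in capitals. The opening set shows the segments that led the 3 wt macrophage libraries. They lie at chr6:69814631-69814928 (minus strand), chr6:68425774-68426072 (plus) and chr6:69607275-69607574 (minus).
Igkv12-44: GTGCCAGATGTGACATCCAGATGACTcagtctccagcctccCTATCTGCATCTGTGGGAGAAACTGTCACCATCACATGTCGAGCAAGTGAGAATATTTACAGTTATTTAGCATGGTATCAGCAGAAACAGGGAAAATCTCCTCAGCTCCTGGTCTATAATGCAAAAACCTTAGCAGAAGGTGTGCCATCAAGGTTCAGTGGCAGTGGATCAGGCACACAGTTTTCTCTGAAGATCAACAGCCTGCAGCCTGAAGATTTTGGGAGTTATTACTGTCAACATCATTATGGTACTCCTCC
Igkv16-104: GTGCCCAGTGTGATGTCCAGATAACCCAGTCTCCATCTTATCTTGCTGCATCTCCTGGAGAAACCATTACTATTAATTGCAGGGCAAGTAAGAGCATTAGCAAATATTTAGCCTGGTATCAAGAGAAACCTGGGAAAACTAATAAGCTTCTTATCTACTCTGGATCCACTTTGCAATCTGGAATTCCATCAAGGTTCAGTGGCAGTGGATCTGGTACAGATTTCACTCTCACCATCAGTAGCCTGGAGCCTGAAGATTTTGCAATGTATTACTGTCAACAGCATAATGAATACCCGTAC
Igkv4-55: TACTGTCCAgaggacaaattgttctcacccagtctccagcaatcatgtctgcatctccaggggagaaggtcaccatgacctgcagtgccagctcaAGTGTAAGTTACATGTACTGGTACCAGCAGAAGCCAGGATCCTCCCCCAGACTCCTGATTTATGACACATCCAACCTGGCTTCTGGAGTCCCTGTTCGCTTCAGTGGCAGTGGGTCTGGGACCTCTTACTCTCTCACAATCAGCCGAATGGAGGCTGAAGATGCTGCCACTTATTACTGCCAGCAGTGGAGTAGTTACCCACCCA
Igkv16-104 was gene-specific in every window, and Igkv4-55 in 46.7% of its windows.

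The next set shows 5 of the 8 segments that were higher in cre than in wt macrophage libraries, because they form families of near-copies. They lie at chr6:70518550-70518849, chr6:70607737-70608036, chr6:70572931-70573230 and chr6:68050159-68050456 (all plus strand) and chr6:67942074-67942371 (minus).
Igkv3-12: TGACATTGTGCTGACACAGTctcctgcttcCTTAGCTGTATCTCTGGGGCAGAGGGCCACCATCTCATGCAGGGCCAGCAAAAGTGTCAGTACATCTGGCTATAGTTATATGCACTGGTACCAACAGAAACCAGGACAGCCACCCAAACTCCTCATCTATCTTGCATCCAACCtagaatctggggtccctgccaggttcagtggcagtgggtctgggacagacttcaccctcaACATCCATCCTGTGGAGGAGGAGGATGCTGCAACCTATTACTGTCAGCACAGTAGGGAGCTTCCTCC
Igkv3-7: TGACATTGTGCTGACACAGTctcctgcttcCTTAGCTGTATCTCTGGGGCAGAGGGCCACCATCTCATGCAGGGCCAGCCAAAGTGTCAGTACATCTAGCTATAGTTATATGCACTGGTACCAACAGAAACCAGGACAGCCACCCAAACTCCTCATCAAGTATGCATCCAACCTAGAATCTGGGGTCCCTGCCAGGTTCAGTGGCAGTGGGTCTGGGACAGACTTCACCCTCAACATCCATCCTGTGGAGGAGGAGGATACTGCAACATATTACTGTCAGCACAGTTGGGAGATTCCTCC
Igkv3-10: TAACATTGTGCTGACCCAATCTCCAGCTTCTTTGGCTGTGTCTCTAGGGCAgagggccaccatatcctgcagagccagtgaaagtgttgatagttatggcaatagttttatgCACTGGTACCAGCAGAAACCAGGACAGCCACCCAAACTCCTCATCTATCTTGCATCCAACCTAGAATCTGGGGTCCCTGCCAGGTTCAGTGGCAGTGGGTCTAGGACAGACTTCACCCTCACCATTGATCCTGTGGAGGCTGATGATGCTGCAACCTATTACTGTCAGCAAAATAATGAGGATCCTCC
Igkv9-120: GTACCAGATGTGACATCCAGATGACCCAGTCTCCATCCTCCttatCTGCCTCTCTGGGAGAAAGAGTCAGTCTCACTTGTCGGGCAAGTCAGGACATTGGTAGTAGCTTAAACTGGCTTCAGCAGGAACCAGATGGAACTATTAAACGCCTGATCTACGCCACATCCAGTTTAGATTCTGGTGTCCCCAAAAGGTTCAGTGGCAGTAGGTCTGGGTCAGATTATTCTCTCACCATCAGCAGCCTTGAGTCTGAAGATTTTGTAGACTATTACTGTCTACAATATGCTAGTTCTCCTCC
Igkv9-124: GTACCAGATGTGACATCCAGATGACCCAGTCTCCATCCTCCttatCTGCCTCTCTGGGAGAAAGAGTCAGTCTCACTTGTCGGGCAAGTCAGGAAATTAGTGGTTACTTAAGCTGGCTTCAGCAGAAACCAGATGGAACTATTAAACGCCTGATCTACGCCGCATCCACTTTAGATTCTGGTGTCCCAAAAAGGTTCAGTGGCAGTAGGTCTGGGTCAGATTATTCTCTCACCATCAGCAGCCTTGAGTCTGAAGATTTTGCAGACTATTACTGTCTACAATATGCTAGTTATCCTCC
Over the bases shown, Igkv3-12 and Igkv3-7 were 96.7% identical, and Igkv9-120 and Igkv9-124 were 96.0% identical. Igkv3-10 was 88.3% identical to Igkv3-12. Values of such pairs are not independent of each other where reads could fall on either.

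V segment RNA was plentiful in macrophage libraries, varied widely between animals and did not separate the genotypes by amount. It made up 0.134% of all counts in wt macrophage library 2 (12229 counts), 0.492% in wt 4 (35751 counts) and 0.526% in wt 6 (42351 counts). In the cre macrophage libraries it made up 0.196% in 8 (15530 counts), 0.358% in 9 (30061 counts) and 0.391% in 10 (29111 counts). The exact 95% binomial intervals were at most as wide as 0.487% to 0.497% in wt 4 and 0.521% to 0.531% in wt 6. They cover counting error of reads only, not the spread between animals. Reads carried no molecular identifiers, so copies of the same molecule may be counted more than once. The cre libraries lay inside the range of the wt libraries. On the scale log2(CPM + 1) the cre mean differed from the wt mean by -0.11 (geometric means 0.925-fold; exact two-sided permutation test, n = 3 and 3, p = 0.900, adjusted over 12 tests 0.982). With 3 against 3 libraries this test cannot give a p below 0.10. The difference was -0.75 without wt library 2 and 0.23 without wt library 6, so its sign rested on single libraries.

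Epithelial libraries held far less. V segments made up 0.00136% (116 counts), 0.00222% (191), 0.00685% (542) and 0.00638% (538) of counts in wt epithelial libraries 2, 4, 6 and 7. They made up 0.00238% (223), 0.00698% (590), 0.00288% (269) and 0.00368% (323) in cre epithelial libraries 5, 8, 9 and 10. Every macrophage library lay above every epithelial library. The difference was 6.43 on the log2(CPM + 1) scale, an 86.4-fold ratio of geometric means (exact two-sided permutation test over 6 and 8 libraries, p = 0.000333, the smallest it can give, adjusted 0.00400). Between cre and wt epithelial libraries the difference was 0.09 (exact permutation test, n = 4 and 4, p = 0.829, adjusted 0.982). Fewer antibody-producing cells and less antibody RNA per cell cannot be told apart in such bulk libraries.

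**Figure D1:**
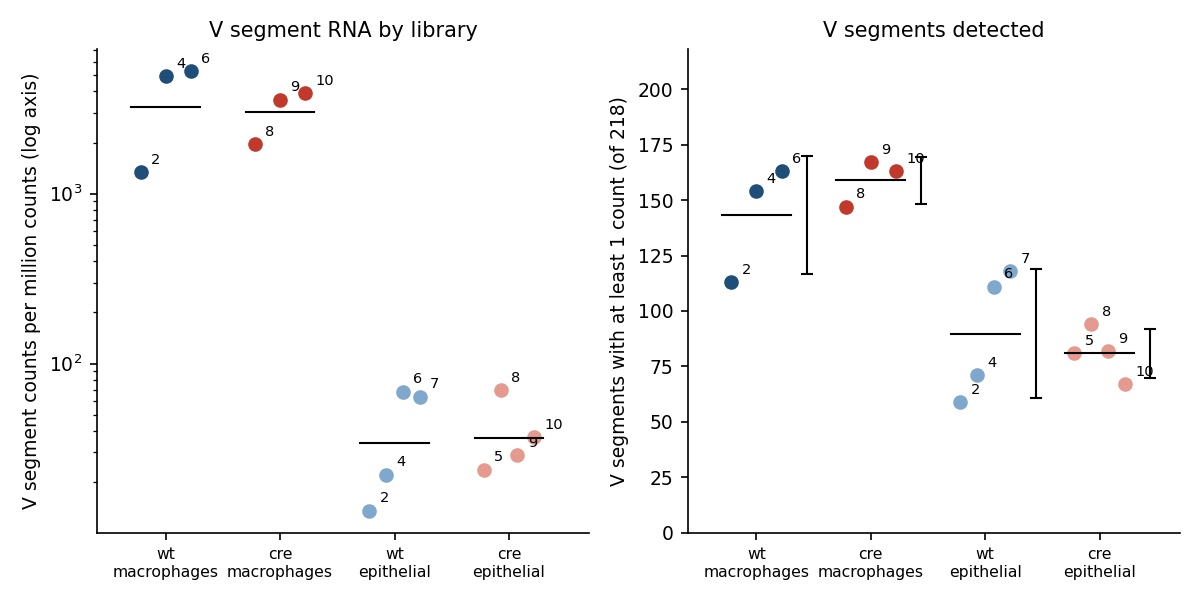
V segment counts in CPM (left, log axis, line at the geometric mean) and number of the 218 V segments with at least 1 count (right, line at the mean, bar for ±1 SD), 1 point per library labelled with its mouse number. Macrophage libraries sit between 1337 and 5260.1 CPM, and epithelial libraries between 13.6 and 69.8 CPM.

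Of the RNAs that accompany V segments in antibody-producing cells, those of Igkc, Igha and Jchain were lowest in the same pair of libraries. Others were not: the lambda constant gene Iglc1 was highest in wt macrophage library 2 (398 CPM). Ighm, the IgM heavy chain gene, was lowest in cre macrophage library 10 (158 CPM). Wt macrophage library 2 and cre macrophage library 8 were the lowest and the second lowest of the 6 for V segments and for Igkc, the kappa constant gene (1212 and 2057 CPM, against 3821 to 6025 CPM in the others). They were also the lowest pair for Igha (895 and 1819.8 CPM, against 2785 to 4111) and for Jchain, which joins IgA units into dimers (496 and 728 CPM, against 1409 to 2472). Kappa V counts per Igkc count were nearly constant, from 0.562 to 0.646 in macrophage libraries and from 0.530 to 0.770 in epithelial libraries. Heavy V counts per heavy constant count ran from 0.257 to 0.346 and from 0.291 to 0.369. None of Igkc, Igha and Jchain passed the edgeR test between genotypes in macrophages. Igkc had a log2 change of -0.17 ± 0.59 (SE, adjusted p = 0.945), Igha 0.07 ± 0.50 (0.976) and Jchain -0.33 ± 0.56 (0.874).

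IgA dominated. Igha supplied 83.3%, 92.5% and 94.0% of heavy constant counts in wt macrophage libraries 2, 4 and 6, and 89.6%, 92.7% and 94.7% in cre libraries 8, 9 and 10. In epithelial libraries it supplied 90.7% to 98.5%. Ighm, the IgM heavy chain, followed with 16.6%, 7.19% and 5.89% in wt and 8.06%, 7.04% and 5.13% in cre macrophage libraries, so its share was highest where V segment RNA was lowest. Ighm itself was more even than Igha, at 158 to 258 CPM in macrophage libraries. The IgG genes were low. Ighg2b reached 4.64 CPM, Ighg2c 1.07 CPM and Ighg3 0.252 CPM. Ighg1 was at 0, 4 and 0 counts in the wt libraries and at 347, 15 and 0 counts in cre libraries 8, 9 and 10, with cre library 8 far above the others at 43.8 CPM. Ighd, the IgD gene of naive B cells, ran from 0.547 to 4.95 CPM. No count fell on Ighe or Iglc4, which allows up to 0.328 to 0.413 CPM (3 counts) in a macrophage library.

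The light chain used most was kappa, with large differences between animals in lambda. The 3 lambda segments held 28.5% of V counts in wt macrophage library 2, 0.565% in wt 4 and 8.38% in wt 6. They held 5.05%, 3.24% and 1.00% in cre libraries 8, 9 and 10. Among light chain V counts alone they held 35.8%, 0.710% and 11.3% in wt and 7.46%, 4.48% and 1.38% in cre. The lambda constant genes, which the V rows do not include, gave 26.1%, 0.432% and 8.56% of light constant counts in wt and 5.01%, 3.22% and 1.15% in cre, the same order of libraries at lower values. Of these, Iglc1 was at 398, 5.50 and 294 CPM in wt and 66.3, 21.6 and 41.0 CPM in cre libraries. Iglc2 was at 30.1, 18.0 and 207 CPM in wt and 41.0, 102 and 9.4 CPM in cre, and Iglc3 at no more than 4.10 CPM. Heavy segments held 20.4% to 26.0% of V counts in wt and 27.3% to 32.3% in cre macrophage libraries, which did not overlap.

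Macrophage libraries contained RNA from a large part of the antibody gene repertoire. At least 1 count was found for 113, 154 and 163 of the 218 segments in wt libraries 2, 4 and 6, and for 147, 167 and 163 in cre libraries 8, 9 and 10. The mean difference of 15.67 segments was within the spread of the libraries (exact permutation test, p = 0.600, adjusted 0.900), and it was 0.50 without wt library 2. With at least 10 counts required, 31, 99 and 115 segments remained in wt and 93, 107 and 107 in cre libraries. All 6 macrophage libraries shared 87 segments, and 17 segments were found in just 1 of them. Epithelial libraries held 59 to 118 segments, 65.79 fewer on average than macrophage libraries (exact permutation test, p = 0.000999, adjusted 0.00599). That gap went with the number of counts. When every library was reduced to 116 V counts, the lowest total, 18.5, 38.4 and 46.5 segments were expected in wt macrophage libraries and 47.5 to 48.8 in cre. The same depth gave 54.0 to 60 in wt epithelial libraries, and 57.9, 40.2, 49.4 and 36.6 in cre epithelial libraries 5, 8, 9 and 10. The difference between cell types then turned to -10.40 segments (exact permutation test, p = 0.0723).

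The 18 segments without a count in any library were 12 of the heavy and 6 of the kappa locus. Igkv14-130 was the only segment counted in epithelial but not in macrophage libraries, and 42 were counted in macrophage libraries alone.

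Genotypes differed in how evenly the counts were spread over segments. The effective number of segments, the number of equally abundant segments that would give the same concentration (inverse Simpson index), was 6.48, 16.7 and 24.8 in wt macrophage libraries 2, 4 and 6. It was 41.1, 35.8 and 35.2 in cre libraries 8, 9 and 10. The 5 most abundant segments held 76.9%, 44.7% and 34.9% of V counts in wt libraries and 23.5%, 27.6% and 26.7% in cre libraries. Neither measure overlapped between genotypes. The cre mean was 21.41 effective segments higher and the share of its 5 leading segments differed by -26.24 percentage points (25.9% against 52.2%; exact two-sided permutation test, p = 0.10 for both, the smallest that 3 against 3 can give, adjusted 0.200). Neither passed a threshold of 0.05, which this design cannot reach.

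**Figure D2:**
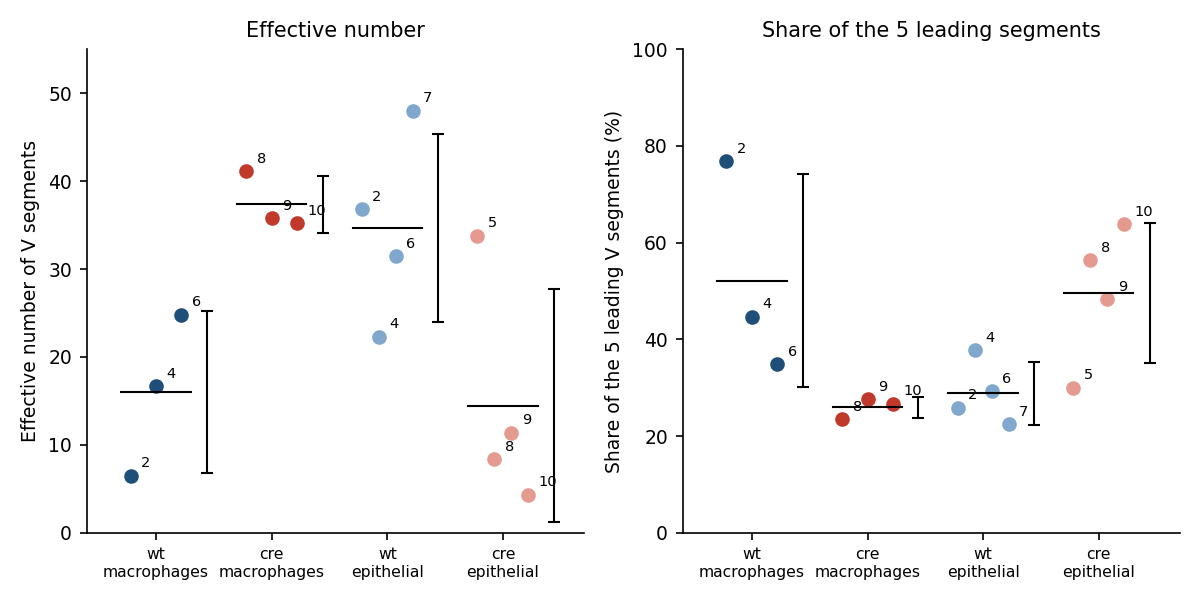
Effective number of V segments (left) and share of V counts held by the 5 leading segments (right) by library, labelled with the mouse number, with the mean as a line and ±1 SD as a bar. Cre macrophage libraries lie at 35.2 to 41.1 effective segments and wt at 6.48 to 24.8, while cre epithelial libraries 8, 9 and 10 lie at 4.34 to 11.4 and wt epithelial libraries at 22.3 to 48.0.

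Sex and 1 library moved with this result. Among males alone the comparison was 1 wt library (24.8) with 3 cre libraries (35.2 to 41.1), a difference of 12.58 effective segments and of -9.0 percentage points in the share of the 5 leading segments. Without wt library 2, which had the fewest V counts and the lowest effective number, the difference was 16.66 effective segments and -13.89 percentage points in the share of the 5 leading segments. Groups that do not overlap cannot come to overlap when libraries are left out, so only the sizes of these differences are informative.

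Epithelial libraries showed the opposite arrangement. Wt epithelial libraries 2, 4, 6 and 7 had effective numbers of 36.8, 22.3, 31.5 and 48.0, and cre epithelial libraries 5, 8, 9 and 10 had 33.8, 8.35, 11.4 and 4.34. Library cre 5, the female of the cre group, lay among the wt libraries, and the 3 males lay below all of them. The difference of -20.19 did not pass the test (exact permutation test, n = 4 and 4, p = 0.0857, adjusted 0.200). The share of the 5 leading segments was 25.9%, 37.7%, 29.3% and 22.5% in wt and 30.0%, 56.4%, 48.3% and 63.8% in cre libraries (difference 20.80 percentage points, exact permutation test, p = 0.0571, adjusted 0.200). With 1 library left out, the exact permutation p ran from 0.0286 (without cre 5, difference 27.34) to 0.114 (without cre 8, cre 10, wt 2 or wt 7). The difference was 9.67 without each library's leading segment and 9.24 on heavy segments. These values rest on 116 to 590 counts a library. The difference between the genotype effects of the cell types, added after the values were seen, was 41.60 effective segments (exact permutation of genotype within cell type over 1400 arrangements, p = 0.00429, adjusted over 4 measures 0.00857). For the 5 leading segments it was -47.04 percentage points (exact permutation, p = 0.00286, adjusted 0.00857). For total share and number detected it was -0.21 (exact permutation, p = 0.823) and 24.42 (exact permutation, p = 0.299). These permutations shuffled genotype in both cell types. They ask whether genotype had an effect in either cell type, and do not test whether the effects were equal. They also shuffled the cell types separately, although equal numbers may mark the same animal.

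**Figure D3:**
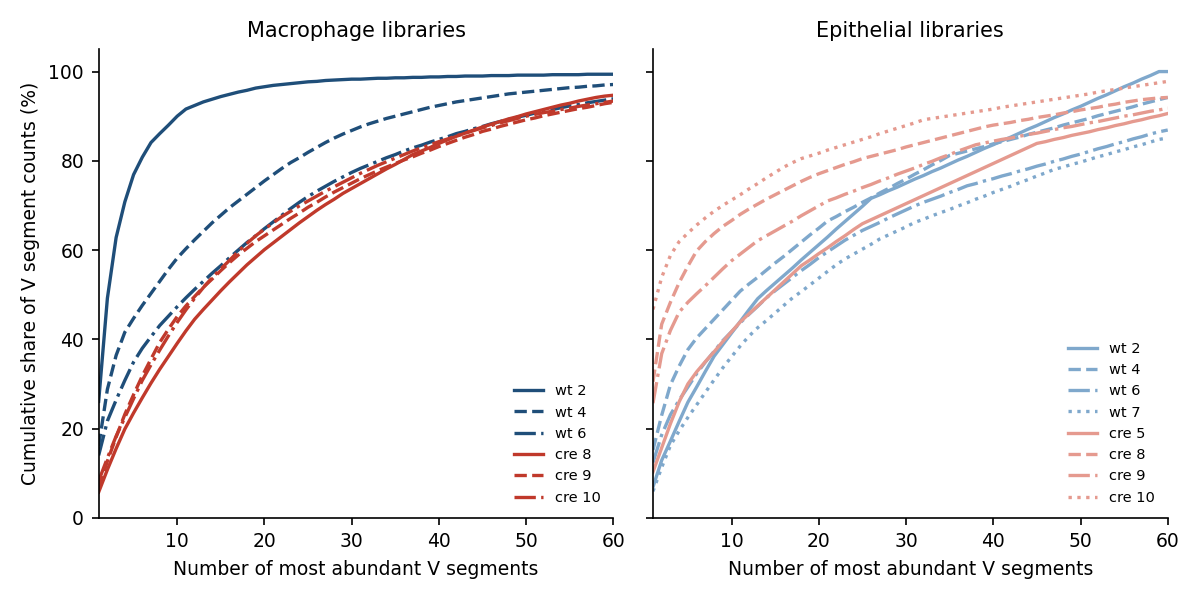
Cumulative share of V counts against the number of segments taken in order of abundance, for macrophage (left) and epithelial (right) libraries, 1 line per library. The line of wt macrophage library 2 rises fastest, with 76.9% in 5 segments and 90% reached at 11, whereas the cre macrophage lines need 50 to 52 segments for 90% and wt macrophage library 6 needs 50.

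Each animal had its own leading segments. In wt macrophage library 2, Igkv12-44 (3186 counts, 26.1% of V counts) and Iglv1 (2829 counts, 23.1%) led. In wt 4, Igkv16-104 (5768 counts, 16.1%) and Igkv6-23 (4534 counts, 12.7%) led. In wt 6, Igkv4-55 (5930 counts, 14%) and Igkv10-96 (3278 counts, 7.74%) led. Leaders of cre libraries held smaller shares: Igkv10-96 5.76% in cre 8, Igkv1-117 6.73% in cre 9 and Igkv1-110 8.26% in cre 10. Igkv1-117 and Igkv1-110 were 96.7% identical over the coding bases compared, so reads could have fallen on either. The 5 leading segments of the 6 libraries filled 30 places with 21 different segments, 15 of which appeared in 1 library. Igkv10-96 appeared in 4.

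A segment that led 1 library was often close to absent in another. Igkv16-104 had 2, 5768 and 11 counts in wt macrophage libraries 2, 4 and 6 and 4, 25 and 447 in cre libraries 8, 9 and 10. Igkv4-55 had 2, 59 and 5930 counts in wt and 4, 31 and 171 in cre. The ratio of the highest to the lowest CPM was 3629 for Igkv16-104 and 3369 for Igkv4-55, and each was far higher in 1 library than in the other 5. Igkv6-23 had the highest mean of all members, 177 ± 231 CPM (SD, n = 6), with 1659, 4534 and 18 counts in wt and 111, 644 and 1234 in cre. Igkv10-96 was high in wt 6 and in all 3 cre libraries (3278, 894, 1538 and 1413 counts) and low in wt 2 and wt 4 (37 and 28). Iglv1 had 2829, 130 and 1955 counts in wt and 445, 261 and 243 in cre.

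Other leaders were present at more than a few counts in every library. Igkv1-117 had 21, 2725 and 354 counts in wt and 83, 2022 and 1206 in cre libraries. Igkv1-110 had 24, 963 and 735 counts in wt and 122, 344 and 2406 in cre libraries. Igkv12-44, the leader of wt 2, had 104 counts in wt 4, 167 in wt 6 and 401, 1321 and 560 in cre libraries. Igkv6-15 ran from 9.13 to 137 CPM and Igkv6-13 from 10.3 to 160.1 CPM. In the edgeR test none of the 10 segments with the highest mean CPM differed between genotypes (adjusted p from 0.535 to 0.998). Across all members, 122 reached 100 counts in some macrophage library, 42 of them in 1 library alone, and 2 reached it in all 6.

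Heavy chains had separate leaders too. Ighv3-6 held 39.3% of heavy V counts in wt macrophage library 2, Ighv1-39 13.1% in wt 4 and Ighv1-53 15.7% in wt 6. In cre libraries Ighv1-76 held 6.47%, Ighv1-7 7.41% and Ighv1-12 12.8%. The large Ighv1 family (53 rows) held 0.744% of V counts in wt 2, against 16% and 17.9% in wt 4 and 6 and 15.5% to 20.1% in cre libraries. Computed on heavy segments alone, effective numbers were 3.61, 16.9 and 19.9 in wt and 27.3, 25.5 and 18.8 in cre libraries, which overlapped. On kappa segments alone they were 2.96, 10.8 and 12.6 in wt and 20.4, 19.6 and 21.1 in cre libraries, which did not.

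Of the 218 members, 110 passed the filter on low counts in the macrophage comparison, and 8 of these were higher in cre libraries and none lower by edgeR (7.27% of those tested). Over all 14087 genes tested, 0.944% differed, 0.731% being higher and 0.213% lower. A member could pass the filter through its level in 1 group, so this count is a description. The balance moved with the fit: DESeq2 called 15 higher and 3 lower, edgeR without wt library 2 called 4 higher and 3 lower, and edgeR without wt library 4 called 6 higher and 2 lower. Over all genes, in the same order, these fits called 266 higher and 231 lower of 11277, 33 and 8 of 14671, and 31 and 4 of 14693. The median log2 change was -0.02 for the members tested and 0.00 for all genes, with members ranging from -5.33 to 8.19. The 8 were Igkv9-120, Igkv9-124 and Igkv9-129, then Igkv3-12, Igkv3-10 and Igkv3-7, then Igkv8-27 and the heavy segment Ighv7-3. The 7 kappa segments lay in 2 stretches of chromosome 6, from 67839793 to 68050456 for the Igkv9 genes and from 70171809 to 70608036 for the others.

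Igkv9-120 had 13, 3 and 9 counts in wt and 454, 1100 and 958 in cre libraries, with means of 0.984 ± 0.517 CPM in wt and 106 ± 41.9 CPM in cre (SD over 3 libraries). The edgeR log2 change of Igkv9-120 was 6.81 with an SE of 0.42 (adjusted p = 0.000371). Igkv3-10 had 1, 3 and 4 counts in wt and 449, 381 and 208 in cre libraries, a log2 change of 7.15 ± 0.51 (adjusted p = 0.000428). Both were low in every wt library and high in every cre library. The genotypes overlapped for all 10 segments with the highest means.

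Igkv9-129 had 2, 1 and 4 counts in wt and 130, 192 and 101 in cre libraries (log2 change 6.01, adjusted p = 0.000446). Igkv3-7 had 1, 1 and 12 counts in wt and 263, 370 and 204 in cre libraries (6.03, adjusted p = 0.00616). Ighv7-3 had 5, 3 and 1 counts in wt and 164, 243 and 587 in cre libraries (6.96, adjusted p = 0.00474). These 3 did not overlap between genotypes by a wide margin.

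Igkv3-12 had 1, 3 and 6 counts in wt and 681, 358 and 1499 in cre libraries (8.19, adjusted p = 0.0235), the highest single value of the 8. Igkv9-124 had 1, 6 and 3 counts in wt and 736, 556 and 126 in cre libraries (7.28, adjusted p = 0.0285). Igkv8-27 had 7, 6 and 12 counts in wt and 95, 129 and 23 in cre libraries (3.44, adjusted p = 0.0411) and came closest to overlapping. Together the 8 held 0.253%, 0.0727% and 0.120% of V counts in wt and 19.1%, 11.1% and 12.7% in cre macrophage libraries.

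**Figure D4:**
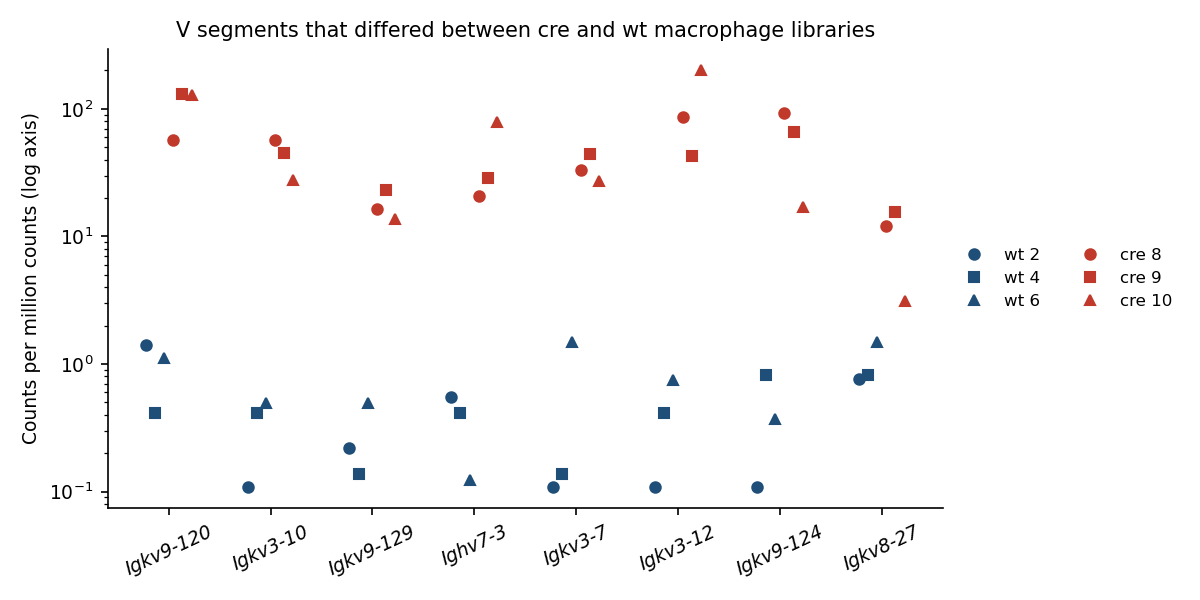
CPM (log axis) of the 8 V segments that differed between genotypes in macrophages, 1 point per macrophage library, in order of adjusted p. All wt points lie at or below 1.49 CPM, and all cre points lie at or above 3.09 CPM.

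Most of these calls were lost with sex in the model, and some without single libraries. The loss with sex was general: 2 of all 14087 genes were called in that model, against 133 without sex. With sex in the edgeR model, Igkv3-7 passed (adjusted p = 0.0491) and Igkv9-120, Igkv3-10 and Igkv9-129 did not (adjusted p = 0.0561 each), nor did the other 4 (0.223 to 0.516). The log2 changes in that model were 6.66 for Igkv9-120, 6.58 for Igkv3-10, 5.24 for Igkv9-129 and 4.68 for Igkv3-7. They were 8.40 for Ighv7-3, 7.35 for Igkv3-12, 7.43 for Igkv9-124 and 2.90 for Igkv8-27. Sex and genotype cannot be fully told apart here, since every cre macrophage library is male. The male wt library 6 held 9, 4, 4 and 12 counts of Igkv9-120, Igkv3-10, Igkv9-129 and Igkv3-7. These 4 passed whichever of the 6 libraries was left out. Igkv8-27 passed in 1, Igkv3-12 and Igkv9-124 in 2 and Ighv7-3 in 4 of the 6.

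Counting separation alone, 21 of the 199 members detected in macrophage libraries (10.6%) had all cre libraries above all wt libraries in CPM, against 4.69% of all 27038 genes detected there. Only Iglv3 lay below (0.503% of members, against 8.83% of genes), with 248, 23 and 673 counts in wt and 3, 8 and 9 in cre libraries (log2 change -5.33, adjusted p = 0.202). The 21 included members with few counts, such as Ighv7-2 with 0 in every wt library and 5, 9 and 12 in the cre libraries. As families, the Igkv9 segments held 0.131%, 0.0280% and 0.0378% of V counts in wt and 8.50%, 6.15% and 4.07% in cre macrophage libraries. The Igkv3 segments held 0.139%, 0.330% and 4.04% in wt and 13.5%, 9.18% and 7.49% in cre.

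The 8 segments also had counts in wt epithelial libraries, and the source of these few counts was not tested. They held 4.31%, 7.85%, 3.32% and 8.18% of V counts in wt epithelial libraries 2, 4, 6 and 7, on 5 to 44 counts. In cre epithelial libraries 5, 8, 9 and 10 they held 4.48%, 41.0%, 1.86% and 6.50%. The genotype effect differed between cell types by edgeR for 3 members of 115 tested (2.61%, against 0.702% of 16375 genes in either direction and 0.470% upward): Igkv9-124 with a log2 difference of 8.28 ± 1.71 (SE, adjusted p = 0.0340), Igkv9-120 with 7.88 ± 1.29 (0.0114) and Igkv8-27 with 5.25 ± 1.11 (0.0385). In epithelial libraries these differences rested on few counts. All 8 segments together had 5 to 44 counts in a wt epithelial library. The Igkv9 family held at most 1.55% of V counts in a cre epithelial library. The number of members called for this difference was 0 without wt epithelial library 7. It was 1 without wt macrophage library 2 or without epithelial library wt 6, cre 5, cre 9 or cre 10. It was 5 without wt macrophage library 6 or without cre epithelial library 8. Over all genes, 54 to 229 were called with 1 library left out.

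In epithelial libraries 4 members passed the filter and none differed between genotypes by edgeR, against 9.17% of 13553 genes (5.64% higher and 3.53% lower). By edgeR 2 of them had an unadjusted p under 0.05. These were Ighv1-39 (log2 change -1.73, adjusted p = 0.0673) and Igkv6-23 (-1.23, adjusted p = 0.165). DESeq2 gave an adjusted p for only 1 member and did not call it. Igkv6-23 was the leading segment of all 4 wt epithelial libraries and of cre 5, with 8 to 67 counts. The other cre epithelial libraries each had a leader of their own. Igkv3-12 had 180 counts (30.5% of V counts) in cre 8, Igkv4-91 69 counts (25.7%) in cre 9 and Igkv3-5 151 counts (46.7%) in cre 10.

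Of those 3 leaders, 1 was also among the most abundant segments of the macrophage library of the same mouse number. Igkv4-91 had 69 counts in cre epithelial library 9 and 0 counts in cre macrophage library 9, but 939 in cre macrophage library 10. Igkv3-5 held 46.7% of V counts in cre epithelial library 10 and 0.0275% in cre macrophage library 10, and had 1272 counts in cre macrophage library 9. Igkv3-12 held 30.5% in cre epithelial library 8 and 4.39% in cre macrophage library 8, where the leading segment held 5.76%. The labels do not say whether equal numbers mark the same animal.

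The overlap of 2 libraries was taken as the sum over segments of the smaller of their shares of V counts. It was 40.6% to 47.5% among the 3 cre macrophage libraries (mean 44.7%), 19.5% to 26.9% among the 3 wt libraries (mean 23.3%) and 15.2% to 38.8% between genotypes (mean 27.5%). The cre macrophage libraries were thus more alike than any wt pair, and these overlaps share libraries and have no test. Macrophage and epithelial libraries of the same number overlapped by 32.8% on average (6 pairs), and those of other numbers within a genotype by 33.0% (12 pairs). The difference of -0.17 percentage points did not pass the test (exact permutation of numbers within genotype, 36 arrangements, p = 0.972). Wt epithelial libraries and cre epithelial library 5 overlapped each other by 50.4% to 65.9%, and cre epithelial libraries 8, 9 and 10 overlapped each other by 27.1% to 30.1%.

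**Figure D5:**
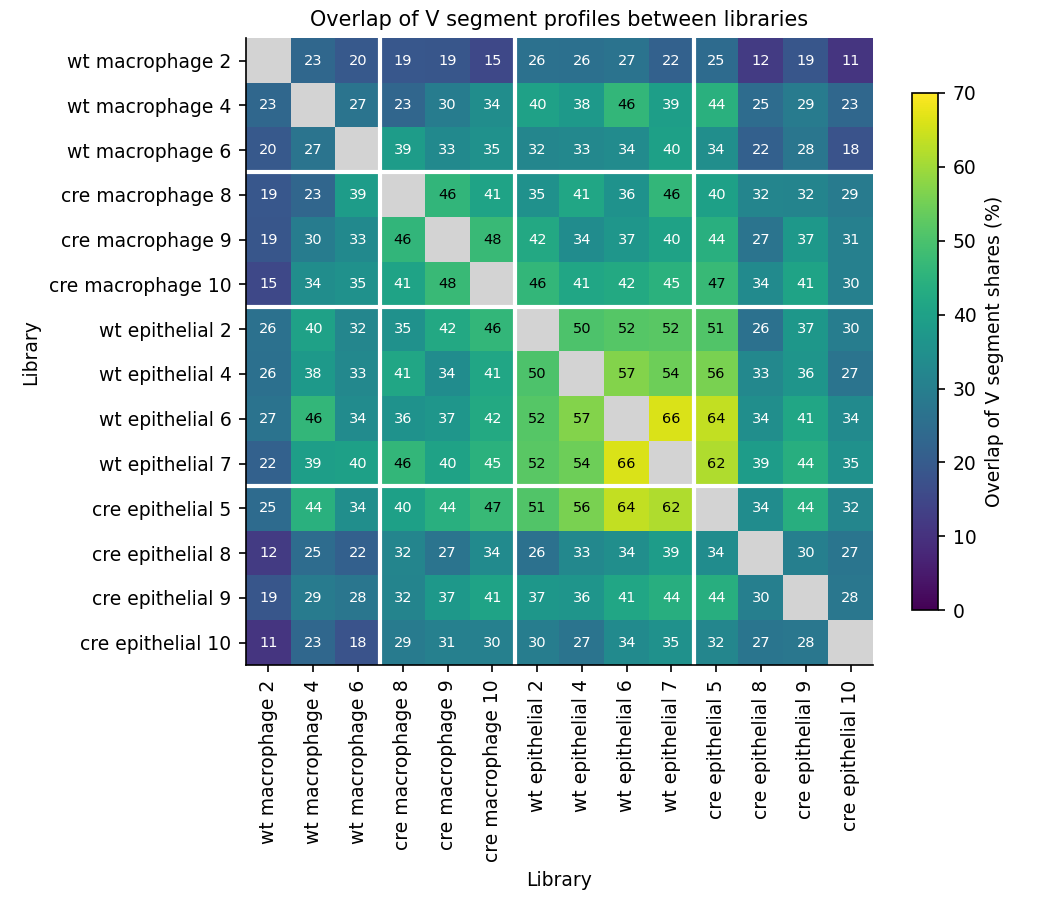
Overlap of V segment shares between every 2 libraries, in percent, with the 4 groups separated by white lines and the diagonal left grey. The wt epithelial libraries and cre epithelial 5 form the brightest block (50.4% to 65.9%), and wt macrophage 2 is low against all others (10.9% to 26.6%).

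Between cell types, 115 members passed the filter and 111 were higher in macrophage libraries by edgeR with at least a 2-fold difference, against 29.7% of 16375 genes. Members passed this filter through macrophage libraries, so the share is a description. The 3 highest log2 differences were 9.98 for Igkv4-61 (2306 counts over the macrophage libraries and 2 over the epithelial), 9.49 for Igkv17-121 (2946 and 6) and 9.27 for Iglv2 (2455 and 6). No member was lower. The 4 that were not called were Igkv19-93, Igkv4-63, Ighv5-12 and Igkv3-12, the last at 2548 and 213 counts.

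Genes of the cells that make antibodies were also measured. The 18 plasma cell markers summed to 1709, 3038 and 3597 CPM in wt macrophage libraries 2, 4 and 6 and 1676, 2528 and 2397 CPM in cre libraries 8, 9 and 10, with all 18 detected. None of the 18 tested passed the test between genotypes. The sum leans on Jchain and on Xbp1, a secretory transcription factor that epithelial cells also express (347 to 469 CPM in macrophage and 318 to 498 CPM in epithelial libraries). Mzb1, an antibody-folding factor, was at 1.77 to 5.71 CPM in macrophage libraries and 0 in 7 of 8 epithelial libraries. Tnfrsf17, the plasma cell receptor BCMA, was at 0.671 to 4.54 CPM and Pou2af1, a B-lineage coactivator, at 0.757 to 5.24 CPM. Sdc1, which marks plasma cells and epithelium, was at 11.7 to 31.6 CPM in macrophage and 111 to 221 CPM in epithelial libraries. Prdm1 and Irf4, regulators of plasma cells that macrophages also use, each separated the genotypes without passing the test. Of all 27038 genes detected in macrophage libraries, 4.69% separated with cre higher and 8.83% with cre lower. Prdm1 was at 18.3 to 31.1 CPM in wt and 46.2 to 59.3 CPM in cre libraries (log2 change 1.22, adjusted p = 0.0677 by edgeR). Irf4 was at 34.9 to 48.6 CPM in wt and 18.9 to 26.1 CPM in cre libraries (-0.70, adjusted p = 0.204).

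B cell genes were lower. The 16 B cell markers summed to 78.5, 147 and 80.5 CPM in wt and 74.8, 94.1 and 79.6 CPM in cre macrophage libraries. Cd79a and Cd79b, the signalling chains of the B cell receptor, were at 4.54 to 26.1 and 8.07 to 21.7 CPM. Ms4a1 (CD20) was at 0.883 to 9.18 CPM. Of 11 B cell markers tested, Cd22 alone was called by edgeR, as higher in cre libraries, against 0.944% of all 14087 genes called in either direction. The median log2 change of the 11 was -0.28, so the list as a whole did not rise. The 9 T cell markers summed to 19.9 to 27.8 CPM in wt and 7.31 to 11.7 CPM in cre macrophage libraries, which did not overlap. None of 6 tested passed the edgeR test between genotypes, and their median log2 change was -0.87. The part of plasma cell or B cell RNA in the V segment differences was not tested.

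Receptors that bind antibody were expressed in every macrophage library. Fcer1g, the shared signalling chain, was at 720.2 to 774 CPM in wt and 1035 to 1234 CPM in cre libraries. Fcgr3 was at 347 to 429 CPM in wt and 435 to 477 CPM in cre, and Fcgr4 at 97.2 to 186 and 196 to 217 CPM. These 3 lay higher in every cre library than in any wt library, as did 4.69% of all 27038 genes detected in macrophage libraries. The inhibitory Fcgr2b was at 396 to 592 CPM and Fcgr1 (CD64, used in the sort) at 64.1 to 103 CPM over all 6 libraries. Fcgrt, the receptor that recycles IgG, was at 357 to 529 CPM in macrophage and 89.0 to 142 CPM in epithelial libraries. None of these 6 passed the test between genotypes in macrophages (adjusted p from 0.119 to 0.949 by edgeR). The genotype effect of Fcer1g differed between cell types (edgeR log2 difference 1.69 with an SE of 0.36, adjusted p = 0.0377). Within cell types its edgeR log2 change was 0.74 in macrophages and -0.97 in epithelial libraries (adjusted p = 0.119 and 0.0597). Epithelial libraries held Fcer1g at only 2.56 to 9.48 CPM, so a fall at low level there made up much of the difference. Pigr, which carries IgA across epithelium, was at 3.71 to 12.2 CPM in macrophage and 706 to 1401 CPM in epithelial libraries.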

How the data were processed

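RNA of 6 macrophage and 8 epithelial libraries was made into Smart-seq2 and Nextera XT libraries and read as 50-base single reads, per the labels' protocols. The authors deposited gene counts and FPKM values (fragments per kilobase, scaled to library depth) for 55487 rows. STAR 2.5.2b, Picard 2.19.2, DESeq2 1.24.0 and build GRCm38 (mm10) are named per the submitters' processing notes. Their roles, the counting program and the treatment of reads matching several genes are not given in the labels or headers read here. All sample columns were used (0 left out).

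Shares and CPM used all counts of a library as the denominator. Detection meant at least 1 count. Library measures were compared by exact permutation with Benjamini-Hochberg adjustment over 12 tests. Counts of all genes were fitted with edgeR 4.0.16 in R 4.3.3 (TMM, filterByExpr with a minimum count of 10, robust quasi-likelihood test, Benjamini-Hochberg adjusted p under 0.05, and for cell types a 2-fold minimum). DESeq2 1.42.0 on counts and limma 3.58.1 on log2(FPKM + 1) were alternatives. The edgeR fit was tested on simulated counts of 14087 genes for the macrophage comparison. There it called 18 of 100 genes changed 2-fold, 89 of 100 changed 4-fold and 5 unchanged genes. The simulation gave no separate rates for V segments, whose counts varied widely between animals. Its rates are therefore no measure of error or power for the members. Python 3.11.15, scipy 1.17.1, numpy 2.4.6, pandas 2.3.3 and matplotlib 3.10.9 did the rest. The labels name mice, and p-values measure the spread between these libraries. No 2 libraries of a group were alike within sampling noise (lowest chi-square per degree of freedom 6.72).

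Named by rule were the 10 segments with the highest mean CPM in macrophages, the leader of each library, segments with an adjusted p under 0.05, the 3 largest differences between cell types, constant genes and listed antibody-related genes. Others were named after their values were seen. The members and lists were chosen with earlier results of these data known. The result of 1 listed gene is not reported here.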

Additional observations from a re-analysis of the deposited data

Results flagged for a closer look

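In groups of 4 epithelial libraries, single libraries stood far from the other 3 for 5 segments, out of 34 segment groups examined whose highest library had more than 3 counts, a minimum set after the values were seen. Chance would flag about 1 in 20 independent groups picked without regard to their values. Leaders of libraries were among the segments named by rule, and Igkv3-12, Igkv4-91 and Igkv3-5 led the libraries in which they were flagged. The rate is therefore no measure of chance for them. Cre epithelial library 8 was the high one for Igkv3-12 (21.3 CPM) and Igkv3-7 (3.43 CPM), which are near-copies. Cre epithelial library 9 was high for Igkv4-91 (7.38 CPM) and cre epithelial library 10 for Igkv3-5 (17.2 CPM). Wt epithelial library 7 was high for Igkv9-120 (1.07 CPM, 9 counts).

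The genotype effect differed between macrophages and epithelial cells by 41.60 effective segments and by -47.04 percentage points in the share of the 5 leading segments. The exact permutations within cell type for both were added after the values were seen. They ask whether genotype had an effect in either cell type, not whether the effects were equal. By edgeR the genotype effect also differed for Igkv9-124 (log2 difference 8.28), Igkv9-120 (7.88) and Igkv8-27 (5.25), each on few epithelial counts. None of these 3 passed with the mouse number as a block, where 8 of all 16375 genes did.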

How the results depend on the processing

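The share of V counts had no settled direction between genotypes. In macrophages the log2 difference was 0.04 with TMM sizes, 0.09 with FPKM, 0.09 without each library's leading segment and 0.28 on heavy segments, and leaving out 1 library gave -0.75 to 0.23. In epithelial libraries it was -0.24 with ribosomal, mitochondrial and pseudogene rows left out of the denominator, -0.24 without the leading segment, -0.09 with TMM, -0.08 with FPKM, -2.22 CPM on the linear scale, -0.21 on heavy segments, -0.64 in males and -0.33 to 0.42 with 1 library left out. The difference between those effects was 0.24 with that denominator, 0.13 with TMM, 0.17 with FPKM, 0.33 without the leading segment, 0.49 on heavy segments and -0.85 to 0.22 with 1 library left out. Detected segments differed by -4.0 between genotypes in male macrophages, and by 0.50 to 25.50 with 1 library left out. In epithelial libraries leaving out 1 gave -19.00 to 0.67. Reduced to 116 counts, detection differed by -10.40 between cell types, and the genotype effects by 25.08 (exact permutation, p = 0.00857, for an effect of genotype in either cell type). Without the leading segment, cell types differed by -4.63 effective segments and 6.48 percentage points in the 5 leading segments, and with 1 library left out by -0.76 to 6.17 and -7.77 to 3.30. The genotype difference in the 5 leading segments was 16.09 to 27.34 in epithelial libraries. In macrophages leaving out 1 library gave 16.66 to 25.82 effective segments and -34.86 to -13.89 percentage points. The same-number overlap differed by 0.01 as a Spearman correlation, 2.37 on heavy segments, 1.67 without the leading segment and -1.33 to 0.53 with 1 library left out. Causes of these shifts were not tested.

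Called segments in macrophages numbered 18 by DESeq2 (15 higher, 3 lower, with 497 of 11277 genes called in all). There was 1 with sex in the model (higher, with 2 of 14087 genes). They numbered 6 to 10 with 1 library left out (29 to 87 genes), of which 3 were lower without wt 2 and 2 without wt 4. Epithelial calls numbered 7 without a filter (1818 of 27638 genes) and 0 to 2 with 1 library left out (178 to 1947 genes). A minimum count of 50 left no member to test. Calls between cell types numbered 71 at a minimum count of 50 (5969 of 11664 genes) and 110 to 130 with 1 library left out (8459 to 8948 genes). Calls for the difference of effects numbered 9 by DESeq2 (509 of 13655 genes), 10 by limma on FPKM (297 of 12237) and 1 with sex in the model (77 of 16375). They numbered 0 to 5 with 1 library left out (54 to 229 genes).

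With the mouse number as a replicate block, the share differed by 6.48 between cell types (exact paired permutation, p = 0.0312). By edgeR with that block, calls between cell types numbered 110, of 8416 over all genes. Calls for the difference of effects numbered 0, of 8 over all genes. Same-numbered libraries correlated at 0.11, 0.01, 0.16, -0.12, -0.08 and -0.03 in their deviations, so the block was not used in the reported fits. These values do not show whether equal numbers are the same animal. Epithelial values rest on 116 to 590 counts a library, and segments of a few counts there cannot be told from each other.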

Other observations

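Other rows of the antibody loci ran with the V segments. V pseudogenes gave 185, 765 and 1435 counts in wt macrophage libraries 2, 4 and 6 and 313, 582 and 528 in cre libraries 8, 9 and 10, spread over 47 of 158 rows. J segments gave 885, 2287 and 2825 counts in wt and 1070, 1825 and 1988 in cre libraries, over 11 of 14 rows. Of the kappa J segments, Igkj2 was at 0.437 CPM in wt library 2 and 24.3 to 57.0 CPM in the other 5. Igkj5 was at 0.219 CPM there and 21.4 to 84.7 CPM in the others, whereas Igkj1 was at 40.7 CPM in wt library 2 and 12.1 to 87.2 CPM in the others. D segments gave 1 count in all, in cre library 9. T cell receptor V segments, a comparison locus, gave 22 to 53 counts a macrophage library over 54 of 144 rows.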
